A study of Homo sapiens with 12 samples.

Results

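The cytosolic ribosomal protein genes encode the proteins of the small (RPS) and large (RPL) subunits of the ribosome outside mitochondria. They were chosen by gene symbol alone, as RPL or RPS followed by a number, RPLP0 to RPLP2 and RPSA, without pseudogenes or the RPS6 kinases, which gave 84 of the 48114 genes in the tables. Of these, 31 are core proteins of the small subunit, 43 are core proteins of the large subunit, 3 form the stalk of the large subunit (RPLP0, RPLP1, RPLP2) and 7 are paralogs of core genes (RPL3L, RPL7L1, RPL10L, RPL22L1, RPL26L1, RPL39L and RPS27L). Polyadenylated RNA was sequenced in 12 libraries of pancreatic ductal adenocarcinoma (PDAC) lines. PANC-1 cells, which the study uses as a basal-like line, received a control siRNA (siCtrl), siRNA against QKI (siQKI) or siRNA against RBFOX2 (siRBFOX2), with 3 replicates each, for 48 h; the dose is given as 40 nM for siQKI and siRBFOX2. HPAF-II cells, used as a classical line, received the control siRNA only, with 3 replicates. QKI and RBFOX2 are RNA-binding proteins that regulate splicing. Each subtype rests on a single line and each knockdown on transient silencing. The labels number the replicates but do not say that they were separate cultures, so p-values measure the spread between these libraries, which may be technical.

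A ribosome takes up nearly all of its proteins in equal numbers, and their mRNAs are among the most abundant of a growing cell. Most of these mRNAs begin with a 5′ terminal oligopyrimidine (TOP) tract, a C followed by a run of C and T, through which their translation is set together by mTOR and LARP1. The paralogs are used in place of a core protein in some cell types: RPL39L and RPL10L are best known from male germ cells, RPL3L from heart and skeletal muscle, and RPL22L1 from embryonic and tumor cells. RPL7L1 takes part in assembly of the large subunit, and RPS27L is a known target of p53.

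The starts of 10 members, core genes and paralogs with and without a TOP tract, are printed here. The tract, in capitals, begins at the first transcribed base. Each run covers 15 bases before and 15 bases from the transcription start in RefSeq (GRCh38.p14), 5′ to 3′ on the transcribed strand, with the start nearest to that listed in the data.
RPS16, chr19:39435935-39435964, minus strand: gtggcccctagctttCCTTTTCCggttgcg
RPL12, chr9:127451392-127451421, minus strand: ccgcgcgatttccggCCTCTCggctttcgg
RPL22, chr1:6199581-6199610, minus strand: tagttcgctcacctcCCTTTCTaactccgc
RPL22L1, chr3:170870181-170870210, minus strand: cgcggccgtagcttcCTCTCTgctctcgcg
RPL26, chr17:8383179-8383208, minus strand: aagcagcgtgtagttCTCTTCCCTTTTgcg
RPL26L1, chr5:172958714-172958743, plus strand: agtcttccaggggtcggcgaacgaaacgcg
RPS27, chr1:153990747-153990776, plus strand: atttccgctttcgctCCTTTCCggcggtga
RPS27L, chr15:63157463-63157492, minus strand: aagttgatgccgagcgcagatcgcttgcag
RPL7L1, chr6:42879601-42879630, plus strand: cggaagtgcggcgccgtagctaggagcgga
RPL19, chr17:39200268-39200297, plus strand: tgggctctccccttcgcagataatgggagg

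RefSeq starts were matched for 67 of the 84 members. A tract of at least 5 pyrimidines opening with C stood at the start of 43 of them (64.2%), against 1429 of 35116 starts of all genes (4.07%). Of the 62 core and stalk genes matched, 42 carried it, and of the 5 paralogs matched only RPL22L1 did. A member without the tract may carry it at another start: with any listed start, 47 of 67 had it. RPL19, counted without it, has a run of pyrimidines that ends at the base before its printed start.

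The closest pair of core gene and paralog was RPL39 and RPL39L, which encode a small protein lining the peptide exit tunnel. Their coding sequences in GENCODE v29, without the stop codon, are both 153 bases long and differ at 8 bases, given here in capitals.
RPL39, coding exons within chrX:119786687-119791576, minus strand: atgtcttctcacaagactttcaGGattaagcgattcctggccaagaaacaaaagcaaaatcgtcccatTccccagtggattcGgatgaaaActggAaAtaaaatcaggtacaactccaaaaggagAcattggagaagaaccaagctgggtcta
RPL39L, chr3:187121148-187121300, minus strand: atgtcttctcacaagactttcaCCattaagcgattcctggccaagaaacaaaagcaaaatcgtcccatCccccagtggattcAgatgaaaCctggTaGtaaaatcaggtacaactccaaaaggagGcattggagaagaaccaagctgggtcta
The coding sequences of RPL26 and RPL26L1 were 84.1% identical, those of RPS27 and RPS27L 77.8%, those of RPL22 and RPL22L1 65.4%, and those of RPL7 and RPL7L1 53.6%. The longest identical run between the transcripts of a pair was 67 bases for RPL39 and RPL39L and 11 to 20 bases for the other 4 pairs expressed here.

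The deposited values are normalized counts, whose sums, in units of 1000000, ran from 321.8 to 348.2 in the PANC-1 libraries and from 279.8 to 287.2 in the HPAF-II libraries. In each library 82.1% to 84.8% of the lowest values were multiples of 3 of the smallest step, which leaves the sequencing depth unknown. QKI fell from 25533 ± 869 to 5034 ± 412 in siQKI cells (SD, n = 3 each) and RBFOX2 from 15429 ± 76.8 to 2095 ± 352 in siRBFOX2 cells. The siQKI cells had less RBFOX2 than controls too, 12642 ± 129 (log2 change -0.29, adjusted p = 0.021 by limma), with no overlap. All 6 ductal markers (KRT19, KRT7, KRT8, KRT18, SOX9, EPCAM) were expressed in both lines, the 5 acinar markers summed to at most 1.59 in a control library rescaled to 1000000. The 5 immune markers summed to 143.8 to 167.3 rescaled counts in PANC-1 controls, nearly all from CD68, and to 1151 to 1240 in HPAF-II, mostly from LYZ; PTPRC and MS4A1 were at 0 in all 6 control libraries. The part of these markers in the results was not tested. The libraries are bulk RNA, in which fewer cells and less RNA per cell cannot be told apart.

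In PANC-1 control cells the members made up 7.87%, 8.26% and 7.64% of all normalized counts. The share was 8.44%, 8.07% and 8.02% in siQKI cells and 8.06%, 7.68% and 8.31% in siRBFOX2 cells, so the groups overlapped in both comparisons. RPS16, a small subunit protein that contacts the tRNA, held 2.31% to 2.73% of each PANC-1 library and was the highest or second highest gene in all 9. Per kb of principal transcript (GENCODE v29), RPS16 stood at 72.1 times the median of the 76 other core and stalk genes. Among those 76, levels per kb ran from 10433 normalized counts for RPS28 to 1229606 for RPLP2, with the quartiles at 82922 and 451621. The annotated lengths run from 296 to 7686 bases and weigh on single values in that order.

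Per kb the paralogs stood below their core genes in PANC-1 controls, with RPL39L nearest. RPL39L reached 45.3% of RPL39, RPL7L1 10.2% of RPL7, RPL26L1 3.43% of RPL26, RPS27L 2.93% of RPS27 and RPL22L1 1.91% of RPL22. These values rest on annotated lengths, such as 6434 bases for RPS27L against 359 for RPS27. For RPL7L1, RPL39L, RPL26L1 and RPL22L1 they are 3769, 756, 722 and 2190 against 1101, 401, 585 and 2078. Without lengths, siCtrl counts of RPS27L were 6910, 8507 and 6467, against 15119, 14642 and 11932 for RPS27. RPL10L was listed at 0 in all 12 libraries, and RPL3L did not exceed 26.2 normalized counts in any. These 2 genes fell below the mean of 10 normalized counts required for testing, which left 82 members.

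In siQKI cells a small set of ribosomal protein mRNAs passed the threshold, all lower on the deposited scaling. Most of the core set stayed close to its control level. The direction depended on the scaling: with the upper quartile of genes above 0, 5 members passed as higher and 4 as lower. Only RPL39L, RPL22L1 and RPL7L1 kept their call in all 20 alternative settings given below. The question is how far a splicing regulator's loss reaches the mRNAs of the ribosome. Of 82 members, 12 were lower and 0 were higher at an adjusted p under 0.05 (limma, Benjamini-Hochberg over 22544 genes), which is 14.6%, while 33.0% of all genes tested were called, 14.9% higher and 18.1% lower. At an unadjusted p under 0.05 the count was 19 of 82. The 3 siQKI libraries did not overlap the controls in 18 members (22.0%), against 44.7% of all genes. Of the 5 paralogs tested 4 fell, of the 43 core genes of the large subunit 6, of the 31 of the small subunit 2, and of the 3 stalk genes 0.

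RPL39L changed most. It stood at 17104, 15638 and 14465 normalized counts in siCtrl and at 10392, 9245 and 8579 in siQKI cells. All siQKI libraries lay below all controls, and the level fell by 0.74 on the log2 scale (95% interval -0.92 to -0.56, adjusted p = 6.54e-06). RPL39, its near-identical core gene, stood at 19190, 19933 and 16101 in siCtrl and 19470, 17911 and 15659 in siQKI cells, which overlap, with a log2 change of -0.06 (-0.26 to 0.14).

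The other 3 paralogs that fell did so by less. RPL22L1, the paralog of RPL22, stood at 2950, 2967 and 3014 in siCtrl and at 2258, 2264 and 2471 in siQKI cells (log2 change -0.35, adjusted p = 0.0048). RPL7L1 stood at 25190, 25364 and 24784 in siCtrl and at 20101, 21171 and 21370 in siQKI cells (-0.27, adjusted p = 0.00016). RPL26L1 stood at 9812, 9464 and 9701 in siCtrl and at 8118, 7676 and 8313 in siQKI cells (-0.27, adjusted p = 0.0085). None of the 3 had a siQKI library within the range of the controls. RPS27L had a log2 change of 0.19 (-0.003 to 0.39, adjusted p = 0.13) with overlapping libraries.

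The 8 core genes that passed fell by 0.10 to 0.24 on the log2 scale. RPL9, a large subunit protein near the stalk base, stood at 10048, 10764 and 11177 in siCtrl and at 9026, 9133 and 8970 in siQKI cells (log2 change -0.24, adjusted p = 0.0018). RPS26, which lies where mRNA leaves the small subunit, stood at 38554, 38712 and 35972 against 34991, 30992 and 31208 (-0.22, adjusted p = 0.0079). In both genes every siQKI library was below every control. The log2 changes of the others were -0.18 for RPL32, -0.16 for RPL19, -0.15 for RPL26, -0.14 for RPL15, -0.13 for RPL7 and -0.10 for RPS15. The stalk genes RPLP0, RPLP1 and RPLP2 gave -0.02, 0.09 and 0.04, and RPS16, the highest member, gave -0.001 (-0.13 to 0.13).

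**Figure D1:**
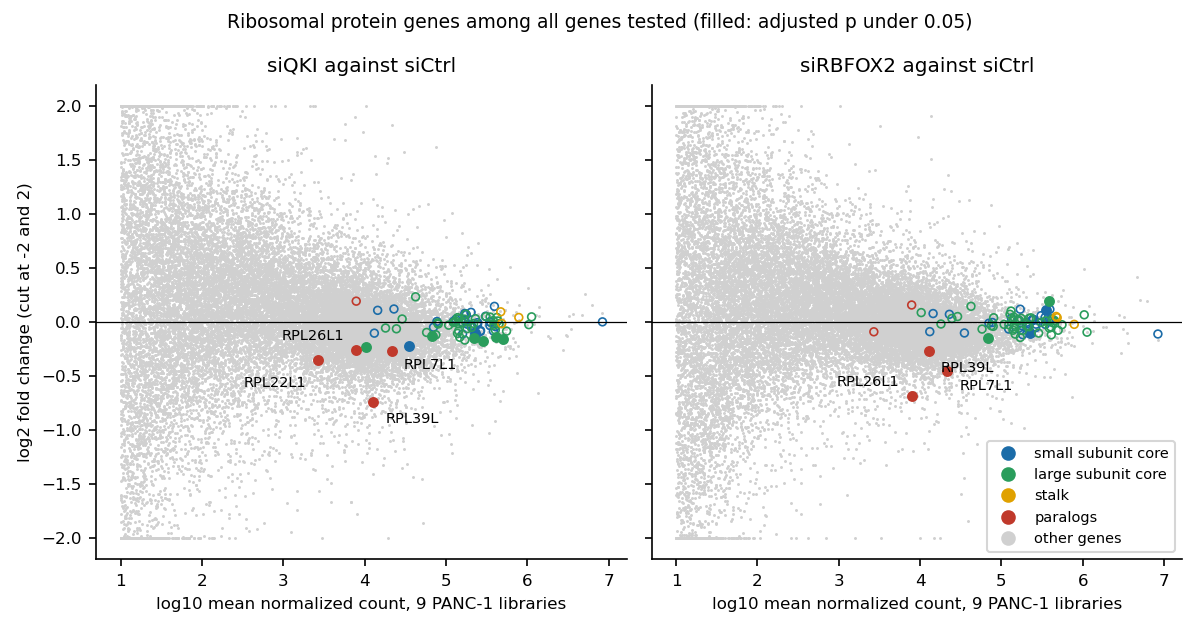
Log2 fold change (vertical, cut at -2 and 2) against log10 mean normalized count over the 9 PANC-1 libraries (horizontal) for all 22544 genes tested, in siQKI (left) and siRBFOX2 (right) against siCtrl. Members are coloured by role, filled where the adjusted p is under 0.05; the core genes lie close to 0 at high levels, and RPL39L (left, -0.74) and RPL26L1 (right, -0.69) lie lowest among the members.

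In siRBFOX2 cells 3 paralogs and 4 core genes passed the threshold, a smaller share than among all genes. Only RPL26L1, RPL7L1 and RPL12 kept their call in all 20 alternative settings given below. Of 82 members 7 passed (8.54%), 2 higher and 5 lower, while 26.5% of all genes tested were called, 12.0% higher and 14.5% lower. At an unadjusted p under 0.05 the count was 10. The libraries did not overlap in 7 members (8.54%), against 37.9% of all genes. The paralogs gave 3 falls of 5 tested, the large subunit core 1 rise and 1 fall of 43, the small subunit core 1 rise and 1 fall of 31, and the stalk 0 of 3. The siRBFOX2 and siQKI comparisons share their 3 control libraries.

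RPL26L1, whose product can stand in for the large subunit protein RPL26, fell most. It stood at 6342, 5229 and 6439 in siRBFOX2 cells, below all controls (9464 to 9812), a log2 change of -0.69 (-0.84 to -0.54, adjusted p = 3.9e-06). RPL26 itself stood at 218064, 207741 and 238966 against 229708, 232728 and 222862, with overlap and a log2 change of -0.05 (-0.14 to 0.05). RPL7L1 stood at 17571, 18798 and 18509, also below all controls (-0.46, adjusted p = 1.8e-06).

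RPL39L fell by 0.27 on the log2 scale (adjusted p = 0.027), but 1 of its siRBFOX2 libraries, at 14724, lay within the control range. The core genes RPL7 and RPS15 fell by 0.15 and 0.10. RPL12, which sits at the base of the stalk, rose from 378439, 355457 and 358411 to 397635, 416529 and 435671, with no overlap (log2 change 0.19, adjusted p = 0.0028). RPS2, at the mRNA entry of the small subunit, rose by 0.11 (adjusted p = 0.033). RPL22L1 gave -0.09 (-0.28 to 0.09) and did not pass.

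The paralogs responded unlike each other when the knockdowns were compared directly. Of 82 members 7 differed between siQKI and siRBFOX2 cells (8.54%), 2 higher and 5 lower in siQKI, while 21.5% of all genes tested were called, 9.93% higher and 11.6% lower. RPL26L1 was higher in siQKI than in siRBFOX2 cells by 0.43 on the log2 scale (adjusted p = 0.00042) and RPL7L1 by 0.19 (adjusted p = 0.0041). RPL39L was lower in siQKI by 0.47 (adjusted p = 0.00073) and RPL22L1 by 0.26 (adjusted p = 0.042). Of the core genes RPL9, RPL12 and RPS2 differed, all lower in siQKI (-0.32, -0.18 and -0.12).

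**Figure D2:**
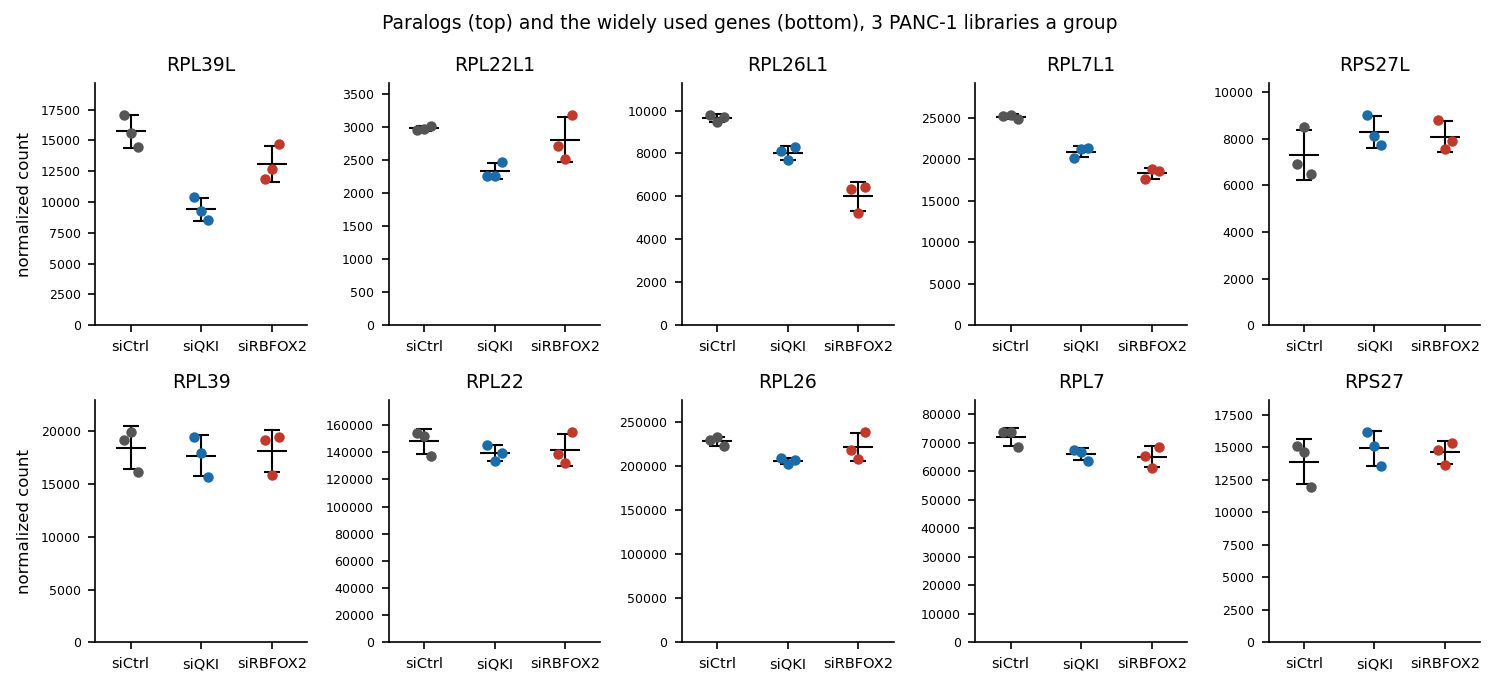
Normalized counts (vertical, from 0) of 5 paralogs (top) and their core genes (bottom) in siCtrl, siQKI and siRBFOX2 PANC-1 cells; points are libraries, bars the mean and SD of 3. RPL39L is lowest in siQKI cells (8579 to 10392) and RPL26L1 in siRBFOX2 cells (5229 to 6439), while RPL39 and RPS27 overlap between groups.

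The calls were recomputed under other settings. In the 20 alternative settings, RPL39L, RPL22L1 and RPL7L1 stayed below the threshold of 0.05 in siQKI, RPL26L1, RPL7L1 and RPL12 in siRBFOX2, and RPL39L, RPL26L1 and RPL9 between the knockdowns. RPL26L1 in siQKI lost its call in 2 of the 20 settings, RPL9 in 1, RPS26 in 2, RPL19 in 4, RPL32 in 7, RPL26 and RPL15 in 9, RPS15 in 12 and RPL7 in 14. In siRBFOX2 RPL39L lost it in 8 (adjusted p up to 0.15), RPS2 in 9, RPL7 in 10 and RPS15 in 17. RPL22L1 between the knockdowns lost it in 11.

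The split of calls into higher and lower moved with the scaling of the libraries. With libraries scaled to the upper quartile of genes above 0, the siQKI members split into 5 higher and 4 lower in place of 0 and 12, and with libraries scaled to the total of all genes into 4 and 8. For siRBFOX2 the splits were 3 and 2, and 6 and 2, in place of 2 and 5. For the comparison of the knockdowns the upper quartile gave 3 and 2 in place of 2 and 5. Under the upper quartile the median of all genes in siQKI moved from 0.03 to 0.11 and that of the members from -0.02 to 0.06.

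The low share of calls among the members held beside other abundant genes. Among the 4798 other genes with a mean as high as that of the lowest core member (RPL9, 10337 normalized counts), 61.6% were called in siQKI and 53.9% in siRBFOX2, with medians of -0.10 and -0.08 on the log2 scale. Of the 77 core and stalk genes 8 (10.4%) and 4 (5.19%) were called, with medians of -0.02 and -0.01. Of the 5 paralogs tested, some of them lower than RPL9, 4 (80%) and 3 (60%) were called. So few genes cannot set the paralogs apart from the 61.6% and 53.9% of the 4798. In siQKI the 95% interval of the change lay within 1.25-fold of the control for 73 of 82 members (89.0%). The share was 24.0% for all genes tested and 59.8% for the 4798 other genes as high as the lowest core member. In siRBFOX2 the interval did so for 77 of 82 members (93.9%), against 27.9% of all genes and 68.5% of the 4798.

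Most members lay on the same side of their group mean in some libraries. The median residual SD was 0.09 on the log2 scale for the members and 0.05 for all genes as high as the lowest core member. In siRBFOX2 replicate 2 the members lay a median of 0.11 below their group mean, with 4 of 82 above it. In siRBFOX2 replicate 3 they lay 0.08 above it, with 77 of 82 above, and in siCtrl replicate 2 they lay 0.07 above it, with 76 of 82 above. Without siRBFOX2 replicate 2 the siRBFOX2 comparison gave 4 members, and without replicate 3 it gave 11.

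The calls are given here by the TOP tract at the nearest RefSeq start, as a description with no test. Of the 43 tested members with it, 2 fell in siQKI (RPL22L1 and RPL26), and of the 23 without it, 8 fell, among them the paralogs RPL26L1 and RPL7L1. In siRBFOX2 1 of the 43 rose (RPL12) and 3 of the 23 fell, the same 2 paralogs among them. The hexamer ACTAAC, the core of the QKI response element, was found in the last 200 bases of the principal transcript of 3 of 84 members (RPL18, RPL35A, RPS27A; 3.57%) and of 2.43% of 19640 genes, searching the transcript strand only. The RBFOX motif TGCATG was found in 5 (RPL29, RPL38, RPS23, RPS25, RPS27L; 5.95%) and in 5.92% of genes. None of these 8 members was among those that passed in the knockdown of the matching protein. With 14.6% and 8.54% of all members passing, so few genes cannot show whether motif and call go together. Introns, where the study places binding sites of both proteins at SEC16A, were not searched.

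Genes that build and feed the ribosome gave the following counts. Of all genes tested 33.0% were called in siQKI and 26.5% in siRBFOX2. Beside the lists, the 4798 other genes as high as the lowest core member gave 2143 falls and 813 rises in siQKI (61.6% called). In siRBFOX2 these 4798 genes gave 1910 falls and 675 rises (53.9% called). The set is not matched to the lists, which also hold lower genes, such as FAS, TAF1A and MRPL14 (means of 446, 1944 and 5917 normalized counts). Differences between lists were not tested. Of 50 assembly factors 40 fell and 2 rose in siQKI (84.0% called, median -0.26 on the log2 scale). In siRBFOX2 33 fell and 2 rose (70.0% called, median -0.19). PES1, which processes the large subunit rRNA, fell from 30964 ± 375 to 18387 ± 574 normalized counts in siQKI (log2 change -0.75, adjusted p = 3.4e-08). NIP7 and TSR1, assembly factors of the large and small subunit, fell by 0.69 and 0.61. In siRBFOX2 IMP3, of the small subunit processome, fell by 0.67 and EBNA1BP2 by 0.54, while RRS1, which brings 5S RNA to the large subunit, rose by 0.61.

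Of 31 initiation factors and their regulators 27 fell and 1 rose in siQKI (90.3% called, median -0.23). In siRBFOX2 15 fell and 2 rose (54.8% called, median -0.14), against 53.9% called among other genes as high as the lowest core member. EIF2S3, the gamma subunit of eIF2 that carries the initiator tRNA, fell from 39680 ± 1077 to 17532 ± 608 in siQKI (log2 change -1.18, adjusted p = 3.3e-11). EIF4EBP2, an inhibitor of eIF4E, and EIF2B2, part of the exchange factor of eIF2, fell by 0.61 and 0.59. In siRBFOX2 EIF3B fell by 0.42, EIF2B2 by 0.38 and EIF2B5 by 0.26. The median standard error of these genes was 0.047, against 0.057 for the members.

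Mitochondrial ribosomal proteins are encoded in the nucleus for the ribosome inside mitochondria. They gave 42 falls and 1 rise of 78 in siQKI (55.1% called, median -0.16). In siRBFOX2 they gave 42 falls and 2 rises (56.4% called, median -0.17). These shares lie near the 61.6% and 53.9% called among other genes as high as the lowest core member. MRPL44, MRPL14 and MRPL9 fell by 0.65, 0.53 and 0.50 in siQKI, and MRPS17, MRPS23 and MRPL51 by 0.40, 0.40 and 0.37 in siRBFOX2. Under the upper quartile scaling the siQKI counts were 22 falls and 7 rises for these genes, 17 and 2 for the initiation factors and 30 and 3 for the assembly factors. In siRBFOX2 they were 34 and 3, 9 and 2, and 25 and 3.

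Of 19 other mRNAs with a TOP tract, 7 fell in siQKI (36.8%) and 4 in siRBFOX2 (21.1%), with 0 rises in both. The shares were 33.0% and 26.5% for all genes, and 61.6% and 53.9% for other genes as high as the lowest core member. NPM1, a nucleolar chaperone, fell by 0.26 and 0.18. EIF3E and EIF3H fell by 0.24 and 0.23 in siQKI, and EIF3H and NACA by 0.29 and 0.17 in siRBFOX2.

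Of 17 regulators of TOP mRNAs and growth 8 fell and 1 rose in siQKI, and 6 fell and 1 rose in siRBFOX2. These shares, 52.9% and 41.2%, lie above the 33.0% and 26.5% called among all genes. They lie below the 61.6% and 53.9% called among other genes as high as the lowest core member. Under the upper quartile the counts were 4 falls and 2 rises, and 4 falls and 1 rise. MYC fell by 0.27 and 0.26, LARP4B by 0.32 and 0.54, RPS6KB2, a kinase of RPS6, by 0.44 in siQKI and RHEB, the activator of mTOR, by 0.28 in siRBFOX2. Of 12 genes of RNA polymerase I 5 fell and 1 rose in siQKI (50.0% called) and 5 fell and 2 rose in siRBFOX2 (58.3%). POLR1A, its largest subunit, fell by 0.66, TAF1B by 0.35 and POLR1E by 0.33 in siQKI. In siRBFOX2 TAF1A fell by 0.33 and TAF1B by 0.24, and TAF1C rose by 0.26.

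Of 11 genes of the p53 response to ribosomal stress 3 rose and 3 fell in siQKI (54.5% called), and 3 rose and 1 fell in siRBFOX2 (36.4%). The shares were 33.0% and 26.5% for all genes, and 61.6% and 53.9% for other genes as high as the lowest core member. Some of the 11, such as FAS, SESN2 and ZMAT3, lie below that level. CDKN1A, an inhibitor of the cell cycle, rose by 0.36 and FAS and SESN2 fell by 0.64 and 0.36 in siQKI. In siRBFOX2 SESN2 and GADD45A rose by 0.26 and 0.20, and ZMAT3 fell by 0.47.

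**Figure D3:**
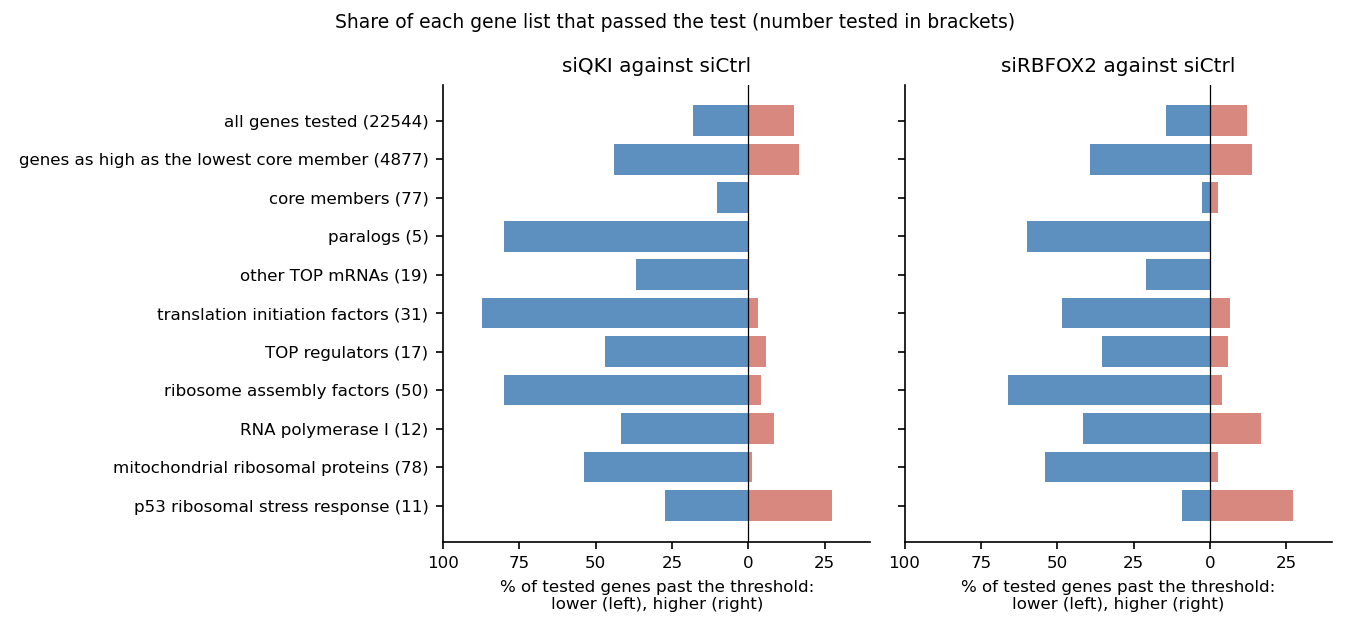
Percent of the tested genes of each list that were lower (left of 0) or higher (right of 0) at an adjusted p under 0.05 in siQKI and siRBFOX2 against siCtrl, with the number tested in brackets. In siQKI 8 of 77 core genes were called, 7 of 19 other TOP mRNAs and 43 of 78 mitochondrial ribosomal proteins. For assembly factors the count was 42 of 50 and for initiation factors 28 of 31. The shares were 33.0% for all genes tested and 60.8% for the 4877 genes as high as the lowest core member. Differences between lists were not tested.

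HPAF-II and PANC-1 controls differed in single ribosomal protein genes by more than either knockdown changed them. The authors normalized the lines separately. No test was therefore made, and the values compared are counts after setting the sum of every library to 1000000 (rescaled counts). At least a 2-fold difference was seen in 18 of 82 members (22.0%), 13 higher and 5 lower in HPAF-II, while 53.2% of 24673 genes passed it, 26.1% higher and 27.1% lower. With the upper quartile or with the deposited values the splits were 8 and 8, and 9 and 8. The upper quartile moved the median of all genes from 0.02 to -0.30 and that of the members from 0.27 to -0.07. The libraries of the lines did not overlap in 57 members (69.5%), against 63.7% of all genes.

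The HPAF-II libraries were uneven. The members held 6.41%, 6.40% and 8.47% of counts in replicates 1 to 3. In replicate 3 the 81 members with a value in every HPAF-II library lay a median of 0.39 (log2) above the mean of the other two, 65 of them above, while replicates 1 and 2 differed by a median of -0.02. Without replicate 3, 21 members differed at least 2-fold, 12 higher and 9 lower.

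RPL39L, expressed in all 9 PANC-1 libraries, was listed at 0 in all 3 HPAF-II libraries, against 50.5, 44.9 and 41.9 rescaled counts in the PANC-1 controls. RPL39 was at 10978, 10221 and 19239 normalized counts in those HPAF-II libraries. Of the 10 genes within 1 Mb of RPL39L with a mean of at least 500 in either line, 0 were lower in HPAF-II by 2-fold or more and 3 were higher. RPL22L1 went the other way, with 8.71, 8.52 and 8.73 rescaled counts in PANC-1 and 27.3, 26.4 and 38.1 in HPAF-II, 3.48-fold higher in HPAF-II. RPL7L1, RPL26L1 and RPS27L had log2 ratios of -0.28, -0.24 and 0.37.

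RPS16 stood at 24628, 26316 and 24017 rescaled counts in PANC-1 controls and at 1121, 1070 and 2073 in HPAF-II, 18.4-fold lower in HPAF-II. It held 0.112%, 0.107% and 0.207% of the HPAF-II libraries and ranked 86, 89 and 37 there. Without RPS16, the members made up 5.40%, 5.63% and 5.24% of the PANC-1 control libraries and 6.30%, 6.29% and 8.26% of the HPAF-II libraries, which do not overlap. With RPS16 included, the small subunit core held 4.29% ± 0.19 in PANC-1 controls and 2.56% ± 0.23 in HPAF-II (SD, n = 3 each). The large subunit core held 3.12% ± 0.09 and 4.08% ± 0.80. RPS16 alone held 2.31% to 2.73% of each PANC-1 library, so the small subunit difference does not describe the other genes of that core. Per gene, the median log2 ratio of the small subunit core was 0.04, with 5 genes higher and 3 lower by at least 2-fold. For the large subunit core it was 0.39, with 7 higher and 1 lower.

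The genes around RPS16 on chromosome 19 (39433137 to 39435949 in hg38) differed in the same direction. Of the 20 neighbours within 500 kb with a mean of at least 500 in either line, 19 were lower in HPAF-II by 2-fold or more and 0 were higher, with a median log2 ratio of -4.43. PAF1, a subunit of the polymerase-associated factor complex, had -4.01, MED29 of the Mediator -4.27, SUPT5H, an elongation factor, -3.38, and FBL, the methyltransferase of rRNA, -3.96. These neighbours are named for their place next to RPS16, and the part of the region in the RPS16 difference was not tested.

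**Figure D4:**
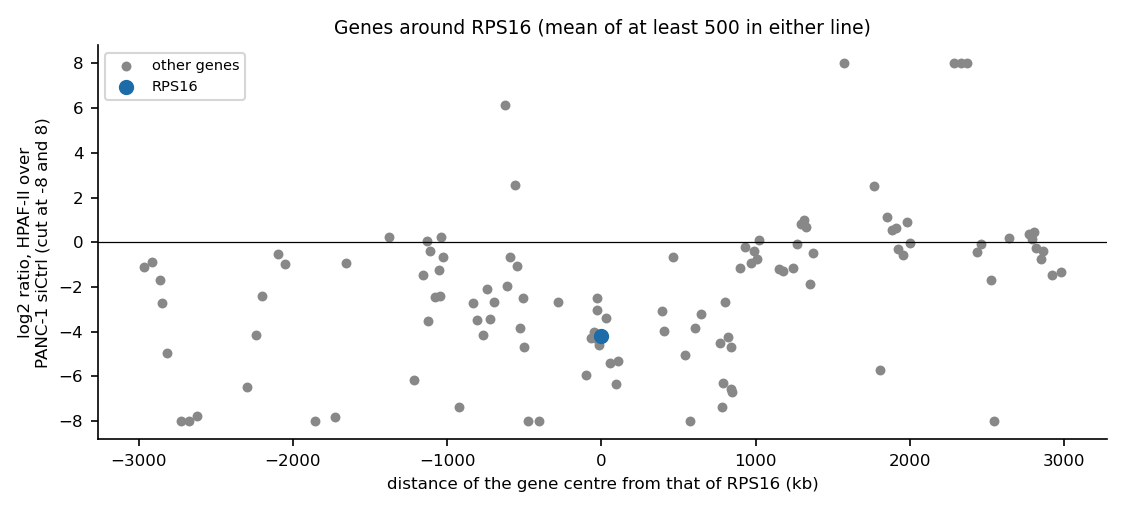
Log2 ratio of HPAF-II over PANC-1 siCtrl rescaled counts (vertical, cut at -8 and 8) for genes on chromosome 19 by the distance of their centre from that of RPS16 in kb (horizontal), for genes with a mean of at least 500 in either line and not listed at 0 in HPAF-II. RPS16 (-4.20) lies among neighbours that are also lower in HPAF-II.

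RPS28 and RPL28 were also lower in HPAF-II by over 2-fold. RPS28 stood at 46.7, 39.8 and 34.2 rescaled counts in PANC-1 and 10.0, 8.33 and 17.2 in HPAF-II (log2 ratio -1.82). RPL28 had -1.21 and the stalk gene RPLP2 -0.97, with no overlap between the lines. RPL28 overlaps UBE2S, and without strand their reads cannot be told apart. RPS27A, RPL10, RPS4X and RPL29 followed with -0.86, -0.75, -0.62 and -0.56, also without overlap.

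The members highest in HPAF-II came from both subunits. RPS29 stood at 67.9, 69.7 and 54.1 rescaled counts in PANC-1 and at 335.7, 360.5 and 285.1 in HPAF-II (log2 ratio 2.36), and its listed span overlaps 10 other genes. RPL37 had 1.89, RPS6, the substrate of the S6 kinases, 1.78, RPS23 of the decoding center 1.55, and RPL13A 1.41. RPL23, RPL19 and RPL9 had 1.36, 1.32 and 1.24. In all of these every HPAF-II library was above every PANC-1 control. Across the 80 members other than RPS16 and RPL39L, the log2 ratio and the median ratio of the neighbours within 1 Mb had a Spearman's rho of 0.61; the points share the same 6 libraries and in part the same neighbours.

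**Figure D5:**
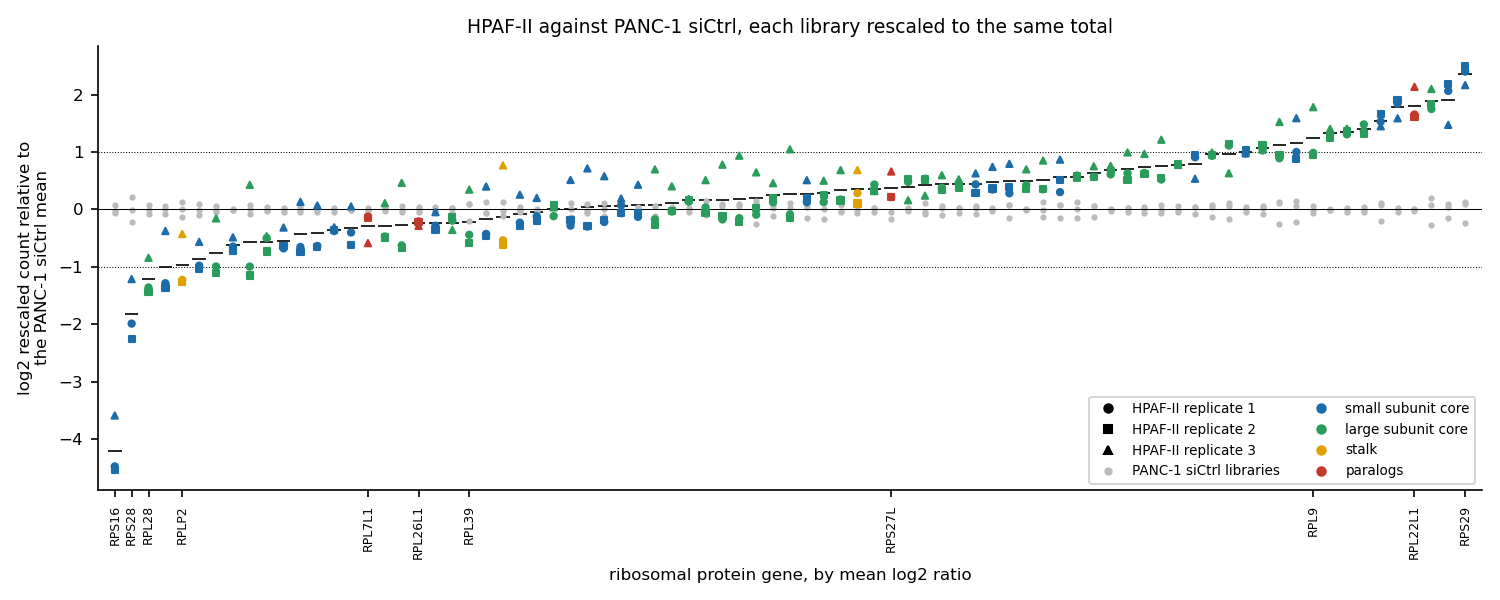
Log2 rescaled count of each HPAF-II library (symbols) and each PANC-1 siCtrl library (grey) relative to the PANC-1 mean, for the tested members in order of their mean log2 ratio (black bars), with some genes named on the axis; RPL39L, listed at 0 in HPAF-II, is left out. RPS16 (-4.20) and RPS29 (2.36) mark the ends, and triangles show replicate 3 of HPAF-II.

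The study's supplementary tables name exons or introns of some members, and gene-level values of 5 of these are given here. In siQKI the log2 changes were -0.12 for RPS20, -0.12 for RPL17, -0.02 for RPS23, -0.04 for RPS24 and 0.04 for RPL13A, and in siRBFOX2 they lay between -0.04 (RPL17) and 0.03 (RPS24). None of the 5 passed the test, with adjusted p between 0.093 and 0.86 in siQKI. The core genes RPL3, RPL10 and RPL22, which have paralogs, gave -0.02, -0.02 and -0.09 in siQKI.

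Reads of ribosomal protein genes can also match processed copies. GENCODE v29 names 1133 pseudogenes for the 77 core and stalk genes, a median of 10 and up to 91 (RPL23A), and how the authors counted reads with several matches is not given in the sources used here. Across the 77 genes the number of pseudogenes and the level per kb had a Spearman's rho of -0.39, as a description over genes in the same libraries. In 44 of 84 members the listed span overlaps another listed gene, and in 4 of them (RPS27, RPS29, RPL18, RPL28) that gene reached at least 50% of the member's level.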

How the data were processed

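The members, gene lists and tests were chosen with earlier results of these data known. The deposited signal values are gene-level counts that the authors normalized with DESeq2, separately for PANC-1 and HPAF-II, on FAST DB genes (hg38); the submitters' processing notes name STAR 2.7.5a, SAMtools, Picard and FastQC. Whether counting used strand, and how reads with several matches were treated, is not given in the sources used here. Since the values are not whole reads, no count model was used. The 9 PANC-1 libraries were fitted together with limma 3.58.1 (R 4.3.3) on log2(value + 1), with a mean-variance trend, for 22544 genes whose mean reached 10. Fold changes are on that scale, and p-values are two-sided and adjusted over all genes tested by the Benjamini-Hochberg method. Brackets beside a change give its 95% interval.

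Between the lines, libraries were rescaled to 1000000 and compared as log2(value + 0.01), with a 2-fold threshold and no test. The scripts were tested on simulated data. Named genes were, per comparison, up to 10 members with the largest rise and fall past the threshold whose mean reached 50 (between the lines, the 10 highest and lowest ratios), the paralogs with their core genes, the stalk genes, members with exons or introns in the study's tables, and up to 3 genes of each list. A few genes that this rule names are not reported here. A planned permutation test of the members' share of a library was left out. Alternatives were other pseudocounts, filters, scalings and thresholds, a replicate block, a fit of the groups compared alone, and leaving out each library. The files' columns all matched a sample by name.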

Additional observations from a re-analysis of the deposited data

How the results depend on the processing

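No value that passed its threshold changed sign under the alternatives run. For siQKI against siCtrl the 12 members became 4 without a mean-variance trend, 7 at an adjusted p under 0.01 and 6 to 19 when a library was left out (6 without siQKI replicate 2, 7 without siQKI replicate 3, 19 without siRBFOX2 replicate 2). For siRBFOX2 the 7 members became 4 with the median member equal in every library, 4 with only the groups compared, 3 without a trend, 3 at an adjusted p under 0.01 and 4 to 11 with a library left out (4 without siCtrl replicate 1 or siRBFOX2 replicate 2, 11 without siRBFOX2 replicate 3). Between the knockdowns the 7 became 3 with the median member equal, 4 without a trend and 5 to 14 with a library left out (14 without siRBFOX2 replicate 2). Under the upper quartile the other TOP mRNAs called in siQKI fell from 7 to 3 and the initiation factors called in siRBFOX2 from 17 to 11. Between the lines, 32 members differed at least 1.5-fold, and 17 to 21 differed 2-fold with a library left out. The members' share in HPAF-II minus PANC-1 was -0.83 percentage points, 1.53 without RPS16, and -1.52 to -0.484 with a library left out. The causes were not tested. Scaling to the median member and leaving out RPS16 were chosen after seeing the data. With the replicate number as a replicate block, 10, 6 and 7 members passed in the 3 comparisons. Deviations of same-numbered libraries correlated between -0.03 and 0.02 over all genes in 9 pairs. Over the members these pairs ranged from -0.53 to 0.71, and pairs with different numbers from -0.78 to 0.54. These values do not settle whether the numbers pair the libraries. Depth in fragments is unknown, and 3 libraries a group limit the precision of small changes.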
